A study of Drosophila melanogaster with 96 samples.

Results

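The comparison described here set male fruit flies that had been refed for 2 h against males taken after starvation, at 0 h, by sequencing the polyadenylated RNA of single whole flies. The 18 libraries compared, of 96 in the series and 48 from males, were chosen from the titles, as males on the 3 foods with dimethyl sulfoxide (DMSO, a drug solvent) at 2 h or 0 h in 1 sequencing run. No measured value entered this sorting by title, but the comparison itself was chosen with earlier results of these data known. All were virgin Drosophila melanogaster adults, 3 days old, of the w1118 strain, which carries a mutation of the white eye-colour gene. Each was held singly at 25 °C in a feeding plate, given 8 µl of a chemically defined liquid food of 400 kcal/l for 24 h and then starved on phosphate buffered saline for 6 h. The 9 males at 2 h were then given that food again, coloured with a dye at 0.5 mg/ml and holding DMSO at 0.1, 0.2 or 0.4% by volume (3 flies at each level). The 9 males at 0 h were assigned to the same foods but had not been refed, so they had not eaten DMSO. Besides these, the series held males on food without DMSO, females on all 4 foods, and flies refed for 4 and 8 h.

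Refeeding ends a fast. In a starved fly, insulin and TOR signalling are low, and the transcription factors FOXO and REPTOR with its partner REPTOR-BP switch on genes that spare and release stores. After a meal, cells resume making proteins, and those bound for secretion or membranes enter the endoplasmic reticulum (ER), where chaperones fold them and enzymes add sugar chains, before coated vesicles carry them to the Golgi. Gut cells make the enzymes that digest food, and their transcripts also depend on diet.

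The 9 libraries at 2 h held 3703987 to 8493895 gene counts (median 5221128) and the 9 at 0 h held 2860991 to 7028584 (median 5299735), so 3 counts equal 0.353 to 1.05 CPM, the unit of counts scaled by library size used below. Male markers matched the labelled sex. The dosage compensation RNA lncRNA:roX1 lay at 308 to 420.5 CPM at 2 h and 203.7 to 445 at 0 h. The yolk protein gene Yp1 reached at most 0.5435 CPM at 2 h and 1.049 at 0 h. Added control transcripts (spike-ins) stood apart by time. Scaled to gene counts, they stood at 1776 to 4396 CPM at 2 h (median 2862) and 26778 to 58048 at 0 h (median 41482), with no overlap, and the mean at 0 h was 13.1 times that at 2 h (two-sided exact permutation test, p = 4.11e-05, the smallest these 9 and 9 libraries can give, and 0.000535 after Benjamini-Hochberg adjustment over 13 library measures). The same gap ran through the series, with 17818 to 69780 in the 24 libraries at 0 h and 1776 to 11572 in the 72 later ones. Each time also had its own feeding plate, so time, plate and whatever set the spike-in level cannot be told apart, and every change below is relative to the other fly genes of a library. Reads outside annotated genes were also fewer at 2 h (5.17% ± 0.905 at 2 h and 7.24% ± 1.87 at 0 h, SD, n = 9 each, exact permutation test, adjusted p = 0.0371). Ribosomal RNA took 9.78 to 22.4% of gene counts at 2 h and 8.44 to 42.6% at 0 h, where 2 flies assigned to 0.2% DMSO, replicates 1 and 2, held 32.8 and 42.6%. One library titled 0 h (0.4% DMSO, replicate 2) has characteristics that give 8 h. Its spike-in level of 41482 lay within the 0 h range, and without it 123 genes passed in place of the 177 below.

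**Figure D1:**
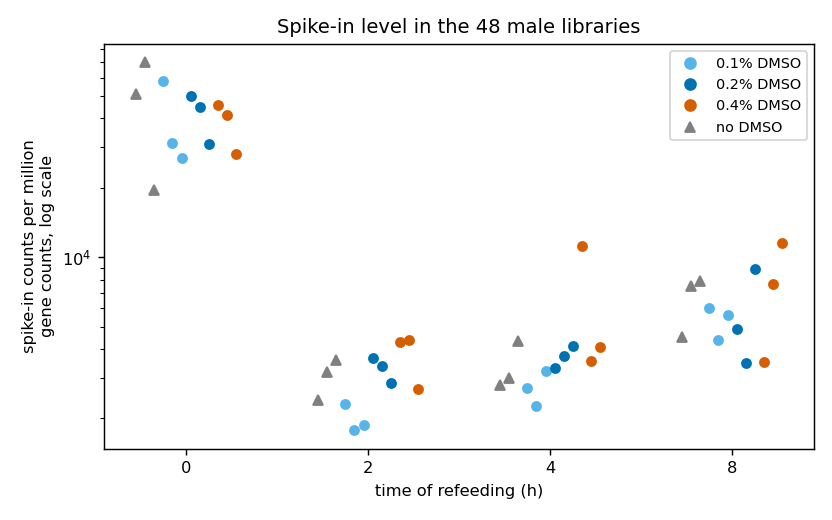
Spike-in CPM, scaled to gene counts, on a log axis, in each of the 48 male libraries by hours of refeeding. Each symbol is 1 fly, coloured by DMSO level, and all 12 libraries at 0 h lie above all 36 later ones.

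The first question was which transcripts differed between refed and starved males. Of 12644 genes tested, 80 rose at 2 h, which is 0.633% of them, and 97 fell, which is 0.767%, together 1.4%. Calls are those of edgeR's quasi-likelihood test at an adjusted p under 0.05 (Benjamini-Hochberg). The rises were small, with a median log2 change of 0.58 and 10 past 1 log2 unit. The falls were larger, with a median of -1.07 and 50 past 1 log2 unit. The median over all genes tested was -0.02. Genes of the ER and early secretory pathway stood among the rises, and digestive enzymes, cytochrome P450s and genes active in fasting among the falls. No cause was tested for any change. Each replicate was its own fly, and p-values rest on the spread between flies. The last gene inside the threshold had an adjusted p of 0.04967 and the first outside it 0.05038.

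Single flies varied more than the group means. CPM ranges of the 2 groups did not overlap for 27 genes, 0.214% of those tested, and 9 of these were among the 177. They were Orct, an organic cation transporter gene, and CG33303, both higher at 2 h, and CG6277, CG4734, salt, CG32195, Sirup, Sclp and alc, which encodes the beta subunit of the energy sensor AMPK, all lower. The count of 177 fell to 94 without replicate 1 at 0 h on the 0.2% food, to 101 and 95 without replicates 2 and 3 at 2 h on that food, to 106 without replicate 1 at 0 h on the 0.4% food, and to 89 without replicate 2 at 2 h on the 0.4% food. It was 32, with 11 rises and 21 falls, without the 2 libraries over 30% ribosomal RNA among the 18 compared. This check was chosen after the data were seen, and male libraries over 30% outside the 18 stayed in the fit. All 83 called genes named in the text kept their direction there. They had been called with mostly the same libraries, so a kept direction is no independent support.

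One group among the rises was the machinery that folds proteins in the ER. Of 13 ER chaperone genes tested, 8 rose and none fell, with a median log2 change of 0.53. This list and the 4 other secretory lists below were written after the values had been seen, so their counts describe the pattern and are not independent evidence of it. Hsc70-3 (FBgn0001218), the fly BiP and the main Hsp70 chaperone of the ER, lay at 339 to 663 CPM at 2 h (median 543) and at 262 to 385 at 0 h (median 284). All but 1 of the refed flies lay above every starved one, and the log2 change was 0.78 (SE 0.13, adjusted p = 0.00105). Gp93 (FBgn0039562), the ER form of Hsp90, lay at 249 to 448 CPM at 2 h (median 390) and 168 to 257 at 0 h (median 212), a log2 change of 0.79 (SE 0.14, adjusted p = 0.00116). Again 8 of 9 refed flies were above the highest starved fly. CaBP1 (FBgn0025678), a protein disulfide isomerase, had 92.3 to 201 CPM at 2 h (median 157) and 72.3 to 107 at 0 h (median 77.3), with a log2 change of 0.85 (SE 0.15, adjusted p = 0.00141).

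Their partners moved in the same direction. Grp170, an Hsp70-type chaperone and exchange factor for BiP, changed by 0.76 on the log2 scale (SE 0.13, adjusted p = 0.00116), with 108 to 235 CPM at 2 h (median 207) and 93.4 to 123 at 0 h (median 115). P58IPK, a DnaJ co-chaperone of BiP, changed by 0.75 (SE 0.13), with a median of 84.6 CPM at 2 h and 51.4 at 0 h. Calr, the lectin chaperone calreticulin, changed by 0.54 (SE 0.12), with medians of 656.5 CPM at 2 h and 398 at 0 h, and 1 refed fly at 339.1 CPM lay below every starved fly. Manf, an ER-resident survival factor, changed by 0.50 (SE 0.12) and ERp44, which retains ER proteins by thiol bonds, by 0.37 (SE 0.10). The list of unfolded protein response genes overlaps this one: 4 of its 18 members rose (Hsc70-3, Gp93, CaBP1 and Sec61alpha), none fell, and its median was 0.19.

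**Figure D2:**
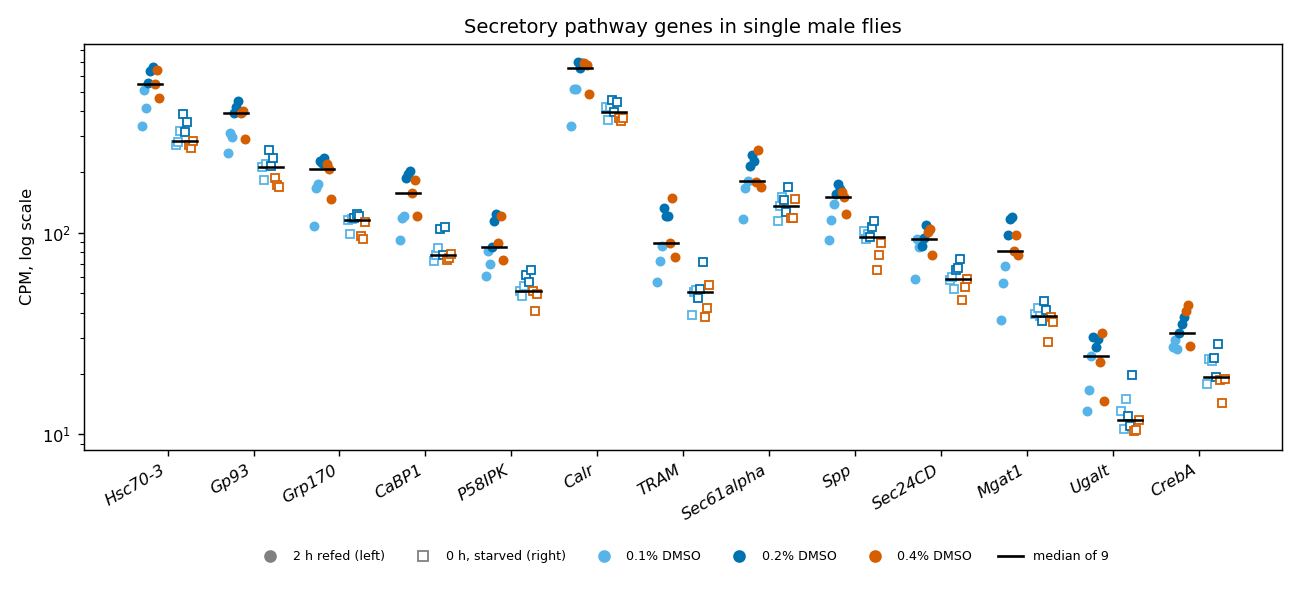
CPM, on a log axis, of 13 genes of the secretory pathway in each of the 9 males at 2 h (filled circles, left) and the 9 at 0 h (open squares, right), coloured by DMSO level, with the median of 9 as a bar. For Hsc70-3 the medians are 543 at 2 h and 284 at 0 h, and the lowest of the 9 circles at 2 h is a fly on the 0.1% food (pale blue) for each of these genes.

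The channel through which new proteins enter the ER was also represented. Of 22 genes of ER entry tested, 5 rose and none fell, and the median was 0.30. TRAM (FBgn0040340), a membrane protein beside the channel, had 57 to 149 CPM at 2 h (median 89.2) and 38.03 to 71.6 at 0 h (median 50.6), a log2 change of 0.98 (SE 0.18, adjusted p = 0.00214). Sec61alpha, the channel itself, had 117 to 256 CPM at 2 h (median 180) and 114 to 169 at 0 h (median 136), a change of 0.50 (SE 0.12, adjusted p = 0.0185), and the groups overlapped in part. Spp, the protease that clears signal peptides from the membrane, changed by 0.60 (SE 0.11), Tapdelta of the translocon-associated complex by 0.48 (SE 0.13) and Sec63, which couples BiP to the channel, by 0.37 (SE 0.09). Sugar chains are added at the same place by oligosaccharyl transferase, and 2 of its 6 genes tested rose, OstDelta by 0.49 (SE 0.10) and the catalytic subunit gene Stt3B by 0.39 (SE 0.09).

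Genes of vesicle traffic and Golgi enzymes were also among the rises. Of 16 genes of the COPI and COPII vesicle coats and their partners, 4 rose: the COPII cargo adaptor gene Sec24CD (0.59, SE 0.12), the COPI coat gene betaCOP (0.38, SE 0.09), KdelR, whose protein returns escaped ER proteins (0.37, SE 0.09), and Arf1, the small GTPase that recruits COPI (0.30, SE 0.08). Of 15 Golgi genes, 5 rose, and none of either list fell. Mgat1 (FBgn0034521), the enzyme that starts complex sugar chains, had the smallest p among all the rises, with 37.01 to 120 CPM at 2 h (median 81.1) and 28.9 to 46 at 0 h (median 38.4). It changed by 1.06 on the log2 scale (SE 0.16, adjusted p = 0.000404), and 8 of 9 refed flies were above every starved one. Ugalt, a Golgi transporter of UDP-galactose, had 13.1 to 31.9 CPM at 2 h and 10.4 to 19.6 at 0 h (log2 0.86, SE 0.18, adjusted p = 0.00684). The Golgi mannosidase gene alpha-Man-IIb changed by 0.71 (SE 0.15), the stacking protein gene Grasp65 by 0.63 (SE 0.13) and lva, a golgin, by 0.37 (SE 0.09).

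Counted once each, the 5 secretory lists held 72 tested genes, of which 24 rose, none fell and 65 had a positive change, with a median log2 change of 0.30. With any 1 library left out the count of 24 lay between 14 (without replicate 2 at 2 h on the 0.4% food) and 29. It was 16 without replicate 3 at 2 h on the 0.1% food, and 6 without both libraries over 30% ribosomal RNA. There Hsc70-3 (0.78, adjusted p = 0.0207), Gp93, CaBP1, Grp170, P58IPK and Mgat1 (1.05, adjusted p = 0.0113) still passed. CrebA, a transcription factor known for raising secretory genes in the salivary gland of the fly embryo, rose as well. It had 26.4 to 43.9 CPM at 2 h (median 31.9) and 14.3 to 27.95 at 0 h (median 19.3), a change of 0.68 (SE 0.13, adjusted p = 0.00313, against 0.0787 without those 2 libraries). CrebA was named after its values were seen.

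Some rises lay outside this pathway. CG18179, a predicted serine protease, had the largest, with 0.771 to 106.9 CPM at 2 h (median 29.6) and 0.181 to 6.03 at 0 h (median 2.23), a log2 change of 3.74 (SE 0.60, adjusted p = 0.00104). Refed flies spread over a wide range, and 7 of 9 were above every starved one. CG3348 changed by 1.88 (SE 0.36), with medians of 24.2 CPM at 2 h and 8.1 at 0 h. CG3999, the glycine decarboxylase gene, changed by 1.86 (SE 0.42, adjusted p = 0.0135), with 3.18 to 32.4 CPM at 2 h and 1.03 to 5.63 at 0 h. Hr38, a nuclear receptor gene induced by neuronal activity, changed by 1.16 (SE 0.23, adjusted p = 0.00514), with 8.58 to 32.6 CPM at 2 h and 3.11 to 11.4 at 0 h, and was the 1 called gene of 9 activity-induced genes. SerRS, the seryl-tRNA synthetase gene, was the 1 called of 16 such synthetases (0.39, SE 0.11, adjusted p = 0.0497). Orct had 23.5 to 50.01 CPM at 2 h and 8.58 to 20.3 at 0 h, without overlap (0.97, SE 0.18, adjusted p = 0.00214). CG3984, CG34447, lncRNA:CR44593, lncRNA:CR42491, lectin-21Cb and Smug rose by 0.997 to 1.17.

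A few rises were of neuronal genes, and transcripts of nerve and eye moved with them. Dscam2, a cell adhesion gene of neurons, had 43.03 to 273.8 CPM at 2 h (median 51.8) and 25.1 to 48.8 at 0 h (log2 0.99, SE 0.24, adjusted p = 0.0244). The value of Dscam2 rested on 1 refed fly, replicate 3 on the 0.2% food with 273.8 CPM: without it the log2 change was 0.56 (adjusted p = 0.166). Of 22 chemosensory receptor genes tested of 186 listed, 2 rose: the odorant receptor gene Or59b (0.81, SE 0.19) and Orco, the co-receptor of most odorant receptors (0.80, SE 0.21). The odorant-binding protein gene Obp49a rose too, by 0.53 (SE 0.14), 1 of 35 of its kind. No member of the nerve and eye list of 25 passed, but 24 of 25 had positive changes with a median of 0.32, and their summed level was 8182 to 13390 CPM at 2 h (median 9614) and 4718 to 9097 at 0 h (median 8091; exact permutation test, adjusted p = 0.0115). The rhodopsin gene ninaE lay at 2130 to 4197 CPM at 2 h and 1671 to 2915 at 0 h (adjusted p = 0.164). Marker sums were shares of all gene counts, ribosomal RNA included, and 2 libraries at 0 h held 32.8 and 42.6% of it. What ribosomal RNA added to the shift of the nerve and eye sum was not tested. The part of that shift in the neuronal rises was not tested either, and in whole flies more cells of a type and more RNA per cell cannot be told apart. Other tissue sums overlapped between the groups: testis markers lay at 16771 to 24664 CPM at 2 h and 14272 to 23747 at 0 h, accessory gland at 12150 to 29838 at 2 h and 13834 to 19788 at 0 h, and muscle at 22482 to 30916 at 2 h and 15032 to 29110 at 0 h. Fat body lay at 959 to 2607 CPM at 2 h and 869 to 2583 at 0 h, and blood cells at 197 to 450.1 at 2 h and 198.5 to 537 at 0 h. None of these lists of 34, 29, 26, 12 and 12 tested genes had a called member. Egg and yolk markers summed to 12.4 to 24.6 CPM at 2 h and 8.97 to 18.2 at 0 h.

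Several digestive enzyme genes fell. CG6277 (FBgn0039475), a lipase gene of the pancreatic type with the largest fall of all called genes, had 0 to 3.37 CPM at 2 h (median 0.317) and 5.05 to 114 at 0 h (median 11.8), with no overlap and a log2 change of -5.74 (SE 0.86, adjusted p = 0.000404). Its neighbour and paralog CG6283, through which reads could be lost or shared, had 10.2 to 56.03 CPM at 2 h (median 40.6) and 51.1 to 230.0 at 0 h (median 97.4), a change of -1.85 (SE 0.33, adjusted p = 0.0018). Of 25 digestive protease genes tested, 2 fell, none rose and 21 had negative changes. Their median was -0.67 and their changes ran from -3.50 to 2.22. The trypsin gene thetaTry (FBgn0011555) had the smallest p of all genes: 0 to 12.9 CPM at 2 h (median 1.19) and 9.02 to 38.2 at 0 h (median 26.4), log2 -3.50 (SE 0.50, adjusted p = 0.000381). The trypsin gene kappaTry had 4.85 to 43.1 CPM at 2 h (median 23.2) and 31.6 to 81.6 at 0 h (median 59.1), log2 -1.28 (SE 0.29, adjusted p = 0.0176).

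More gut genes outside that list fell, while CG18179, the predicted serine protease named above and also outside it, rose. CG10477, another serine protease gene, had 0 to 107.2 CPM at 2 h (median 2.8) and 12.1 to 223 at 0 h (median 147), log2 -3.82 (SE 0.89, adjusted p = 0.0181). The metallocarboxypeptidase genes CG8562 and CG8560 changed by -2.54 (SE 0.61) and -0.98 (SE 0.19). Peritrophin-15a, a chitin-binding protein of the membrane that lines the gut, had 0.197 to 13.5 CPM at 2 h (median 1.87) and 11.6 to 31.8 at 0 h (median 16.1), log2 -2.97 (SE 0.52, adjusted p = 0.00141), and was the 1 called of 14 genes of the gut surface and lysozymes. Npc2f, of a sterol-binding family, changed by -3.01 (SE 0.74). For carbohydrate digestion all 14 genes tested had negative changes, with a median of -1.23, but 1 passed, the maltase gene Mal-A7. It had 0.51 to 379 CPM at 2 h (median 38.5) and 36.07 to 603 at 0 h (median 247), log2 -2.46 (SE 0.66, adjusted p = 0.045), and on the 0.1% food its change was 0.39. The spread of Mal-A7 between refed flies was wide, and 4 of 9 lay below every starved one.

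**Figure D3:**
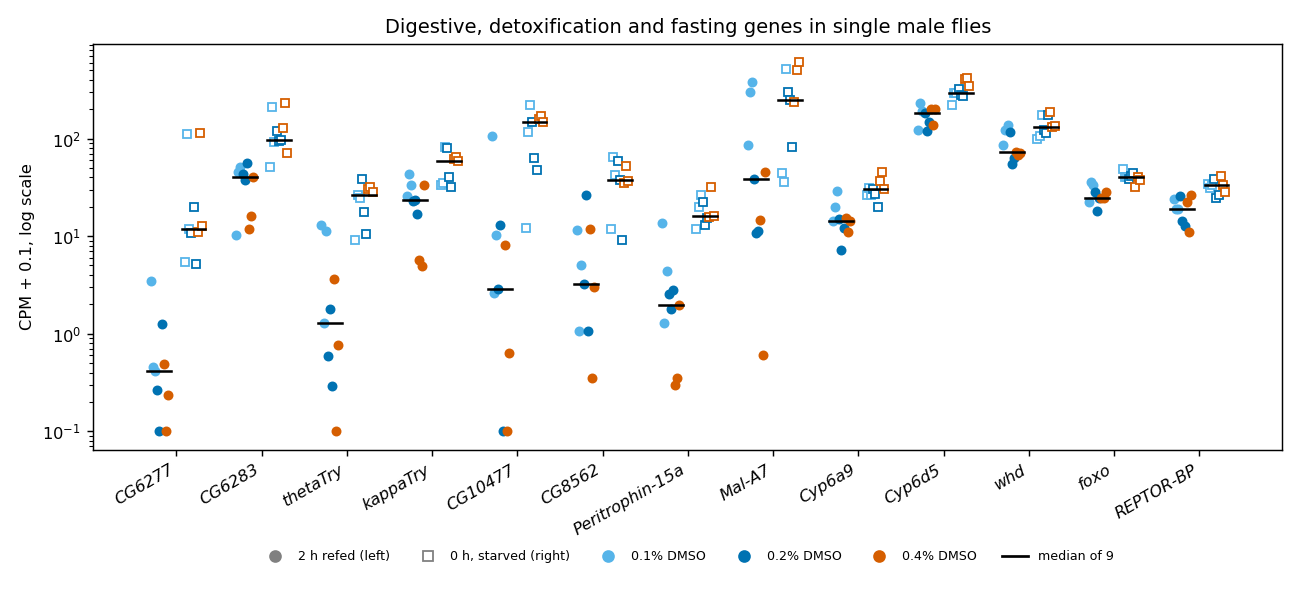
CPM plus 0.1, on a log axis, of 13 genes that fell, in each of the 9 males at 2 h (filled circles, left) and the 9 at 0 h (open squares, right), coloured by DMSO level, with the median of 9 as a bar. CG6277 is separated between the groups, with at most 3.37 CPM at 2 h and at least 5.05 at 0 h, while Mal-A7 overlaps and its high refed flies are those of the 0.1% food.

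A few genes of families known for detoxification fell. Of 73 cytochrome P450 genes tested, 5 fell, none rose, 58 had negative changes and the median was -0.21. Cyp6d5 had 119 to 232 CPM at 2 h (median 182) and 221 to 421 at 0 h (median 296), log2 -0.88 (SE 0.19, adjusted p = 0.0092). Nearly every refed fly was below every starved one, 8 of 9. Cyp6a9 had 7.08 to 28.6 CPM at 2 h (median 14.3) and 19.6 to 44.9 at 0 h (median 30.3), log2 -1.01 (SE 0.18, adjusted p = 0.00141). Cyp4e3 (-3.59, SE 0.61), Cyp4ac3 (-0.95, SE 0.24) and Cyp12a4 (-0.76, SE 0.20) fell as well. Of 33 glutathione S-transferase genes, a family of which only some members conjugate toxins, 2 fell, GstT4 (-0.72, SE 0.17) and GstZ2 (-0.90, SE 0.21). Negative changes were seen in 26, and the median was -0.12. None of 28 UDP-glycosyltransferase genes passed (median -0.08).

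Regulators and enzymes of fasting had 1 fall in each of their 4 lists, by 0.60 to 1.07 on the log2 scale. The gene of the transcription factor foxo had 17.8 to 35.4 CPM at 2 h (median 24.8) and 31.7 to 49.1 at 0 h (median 40.4), log2 -0.60 (SE 0.14, adjusted p = 0.0176), and was the 1 called of 17 insulin and FOXO signalling genes (median -0.08). REPTOR-BP had 11 to 26.6 CPM at 2 h (median 19) and 24.3 to 41.4 at 0 h (median 33.02), log2 -0.73 (SE 0.18, adjusted p = 0.0324), the 1 called of 25 REPTOR, sestrin and autophagy genes (median -0.09). In both, 7 of 9 refed flies lay below every starved fly. The gene whd, the carnitine palmitoyltransferase that takes fatty acids into mitochondria, had 54.4 to 139 CPM at 2 h (median 73.4) and 99.4 to 186 at 0 h (median 132), log2 -0.68 (SE 0.17, adjusted p = 0.0378), the 1 called of 10 fat mobilisation genes (median -0.24). Pepck2, of gluconeogenesis, had 1.27 to 3.36 CPM at 2 h and 2.25 to 6.6 at 0 h, log2 -1.07 (SE 0.28, adjusted p = 0.0383), the 1 called of 20 in its list (median -0.10). Without the 2 libraries over 30% ribosomal RNA, foxo (-0.64, adjusted p = 0.0787), whd (-0.79, adjusted p = 0.0787) and REPTOR-BP (-0.67, adjusted p = 0.172) did not pass, nor did Pepck2 (-1.19, adjusted p = 0.0874).

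Further falls were the cuticle protein gene Cpr67Fb (-1.70, SE 0.41), 1 of 33 cuticle genes, and TotX, a Turandot stress peptide gene (-1.38, SE 0.36), 1 of 10. TotX rested on the 0.2% food, where its change was -3.64 against 0.04 on the 0.4% food, and starved flies ran from 2.87 to 116 CPM. CG8661, CG43774, CG3739, CG14120 and CG1946 fell by 2.21 to 4.89 on the log2 scale. The antisense RNAs asRNA:CR45925 (-2.71) and asRNA:CR45171 (-2.17) fell too. The sources used here do not say whether the counting used the strand of the libraries, so these 2 cannot be told apart from reads of genes on the other strand.

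Many functions had no called gene. None passed among 80 ribosomal protein genes (median log2 change 0.00), 24 of ribosome biogenesis (0.18), 85 of oxidative phosphorylation (-0.01), 46 of the proteasome (-0.07), 29 of the vacuolar ATPase (-0.14), 14 of glycolysis (-0.01), 20 of fat synthesis (-0.04), 10 of the sugar response (-0.16) and 22 of amino acid metabolism (0.11). The ribosomal protein gene RpL3, for example, averaged 1044 ± 55.9 CPM at 2 h and 987 ± 61.3 at 0 h (SD, n = 9 each), and the desaturase gene Desat1 494 ± 162 at 2 h and 532 ± 133 at 0 h. Nor did any pass among 30 immune genes (median -0.32, 24 negative), 12 clock genes (0.23), 26 nutrient hormone and gut peptide genes (0.18), 10 heat shock genes (0.08), 15 oxidative stress genes (0.00), 9 of catecholamine synthesis (0.40) or 5 lysosomal mannosidases (-0.84, all negative). For 89.9% of genes tested the 95% interval of the change lay within 1 log2 unit of 0, and the median SE was 0.154.

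A second set of flies was used to ask whether the changes recurred without DMSO. It held 3 males at 2 h and 3 at 0 h on food without DMSO, from the same plates and the other sequencing run. Ribosomal RNA took 51.2% of gene counts in replicate 2 at 0 h and 51.4% in replicate 3 at 2 h, and no fit left out both. On this food 22 genes passed, 14 higher at 2 h (0.111% of those tested) and 8 lower (0.0633%), together 0.174%. Of the 80 genes that rose on foods with DMSO, 69 (86.25%) had the same direction, with a median of 0.34, and of the 97 that fell 87 (89.69%) did, with a median of -0.91; over all genes tested the share was 59.05%. Calls on both were made for 5 genes: CG3999, salt, JhI-26, the P450 gene Cyp12a4 and the sorbitol dehydrogenase gene Sodh2. CG3999 averaged 28.6 ± 17.5 CPM at 2 h and 3 ± 1.64 at 0 h on this food (SD, n = 3 each). Hsc70-3 had a log2 value of 0.74 (SE 0.23), TRAM of 1.03 (SE 0.31), CrebA of 0.94 (SE 0.23) and REPTOR-BP of -1.34 (SE 0.34), none of which passed there (edgeR adjusted p = 0.163, 0.163, 0.066 and 0.0804). Over the 72 secretory genes the median was 0.24 and 65 were positive. Cyp4e3 (2.27), Npc2f (2.13), Pepck2 (0.27) and Smug (-1.54) had the opposite sign there, and none of these passed. The gluconeogenesis list, which holds Pepck2, had a median of -0.10 on foods with DMSO and 0.23 on food without it. The nerve and eye list had a median of 0.32 on foods with DMSO and -0.31 on food without it.

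**Figure D4:**
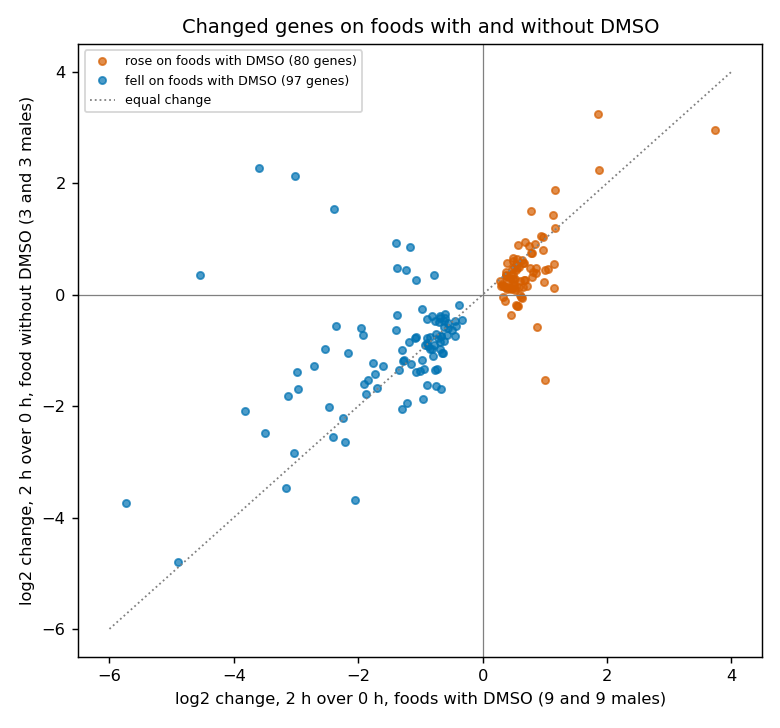
Log2 change at 2 h over 0 h of the 177 genes called on foods with DMSO, on those foods (x axis, 9 and 9 males) and on food without DMSO (y axis, 3 and 3 other males). Each point is a gene, and 69 of the 80 that rose (orange) and 87 of the 97 that fell (blue) lie on the same side of 0 on both axes.

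The genes called only without DMSO included enzymes of fat storage and amino acid metabolism. Dgat2, which makes triglyceride, had a log2 value of 0.73 with DMSO and 3.24 (SE 0.61) without it, and Lsd-1, a lipid droplet protein gene, 0.70 with DMSO and 2.81 (SE 0.59) without. The asparagine synthetase gene AsnS had 0.60 with DMSO and 1.85 (SE 0.40) without, and Gcat 0.44 with DMSO and 2.24 (SE 0.45) without. The tyrosine hydroxylase gene ple had 0.71 with DMSO and 1.77 (SE 0.37) without, and Fib, a nucleolar protein gene, 0.26 with DMSO and 1.17 (SE 0.23) without. None of the 6 passed on foods with DMSO. These genes were chosen after their values were seen. The difference between the 2 changes was itself tested: no gene passed in edgeR (759 of 12644 tested had an unadjusted p under 0.05) and 2 did in DESeq2. DMSO and the sequencing run cannot be told apart in that test. The 22 calls were fragile, with 0 to 25 when 1 library was left out: 2, 0 and 3 without replicates 1, 2 and 3 at 0 h, and 0 without replicate 1 or 2 at 2 h.

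The change was also compared among the 3 foods with DMSO. The median change of the genes that rose was 0.27, 0.73 and 0.74 on 0.1, 0.2 and 0.4% DMSO, and of those that fell -0.51, -1.19 and -1.33. Dependence on the level was called for no gene in edgeR (719 of 12644 tested had an unadjusted p under 0.05) and none in DESeq2. With 3 flies per time on each food, this test could miss such a dependence. Of the 80 rises 75, and of the 97 falls 85, had the same direction on all 3 foods. They were called on the mean change over these same foods, so a shared direction was partly built into their choice. It is no independent support, and the share over all genes tested was not computed. One refed fly on the 0.1% food, replicate 1, was the lowest of the 9 for 53 of the 80 genes that rose, with a median of 0.13 above the 0 h mean on the log2 scale, while the other 8 refed flies lay at 0.364 to 0.863. For the genes that fell the same fly stood at -0.83, within the range of the other 8. Without it 173 genes passed, 96 higher and 77 lower.

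The same comparison in females, 9 flies at 2 h and 9 at 0 h on the same foods, gave 1647 higher genes (12.8% of 12853 tested) and 393 lower ones (3.06%), together 15.9%. Of the 80 genes that rose in males, 56 had the same direction there and 20 passed, and of the 97 that fell 92 had the same direction and 26 passed. The share with the same direction in both sexes over all genes tested was not computed, so the counts of direction have no baseline. The 46 genes called in both are 26% of the male calls and 2.26% of the female ones. CG6277 changed by -5.39 in females (SE 0.94) and CG3348 by 2.21 (SE 0.35). A difference of the change between males and females was called for 24 genes, 0.187% of those tested: 6 with a higher change in males (0.0467%) and 18 with a lower one (0.14%). All 6 were among the male rises: Mgat1, Hsc70-3, Ugalt, slv (a sugar transporter gene of the SWEET family), CG9467 and CG13671. Hsc70-3 had a log2 value of 0.78 in males and -0.00 in females (SE 0.11), a difference of 0.79 (SE 0.15, adjusted p = 0.013), and Mgat1 of 1.06 in males and -0.06 in females (SE 0.13), a difference of 1.12 (SE 0.18, adjusted p = 0.00171). Ugalt had 0.86 in males and -0.15 in females, a difference of 1.02 (SE 0.22, adjusted p = 0.0388). The 18 with a lower change in males included Clk, a clock gene (-0.22 in males and 0.70 in females), and Obp44a (-0.02 in males and 1.15 in females).

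Over the 72 secretory genes the median change was 0.30 in males, with 24 higher, and 0.06 in females, with 3 higher and 1 lower. The secretory lists were written after the values had been seen, which favours the male counts. Counts over these lists are therefore not independent evidence of a difference between the sexes. With 1 of the 36 libraries left out in turn, the count of 24 sex differences fell to between 10 and 15 for 15 libraries, the lowest without replicate 1 of the females at 2 h on the 0.4% food. It was 76 without replicate 3 and 1181 without replicate 1 of the females at 2 h on the 0.4 and 0.2% foods in that order, the last a library with 49.04% ribosomal RNA. Hsc70-3 and Mgat1 were called under all 36, Clk under 35, slv under 29, CG9467 under 22, Ugalt under 14 and Obp44a under 11. Without the female library at 49.04%, 17 of the 72 secretory genes had a higher change in males, in place of 3. Over all genes in that fit, 286 had a higher change in males and 895 a lower one. The sexes came from different runs on these foods, but both times of each sex came from 1 run.

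**Figure D5:**
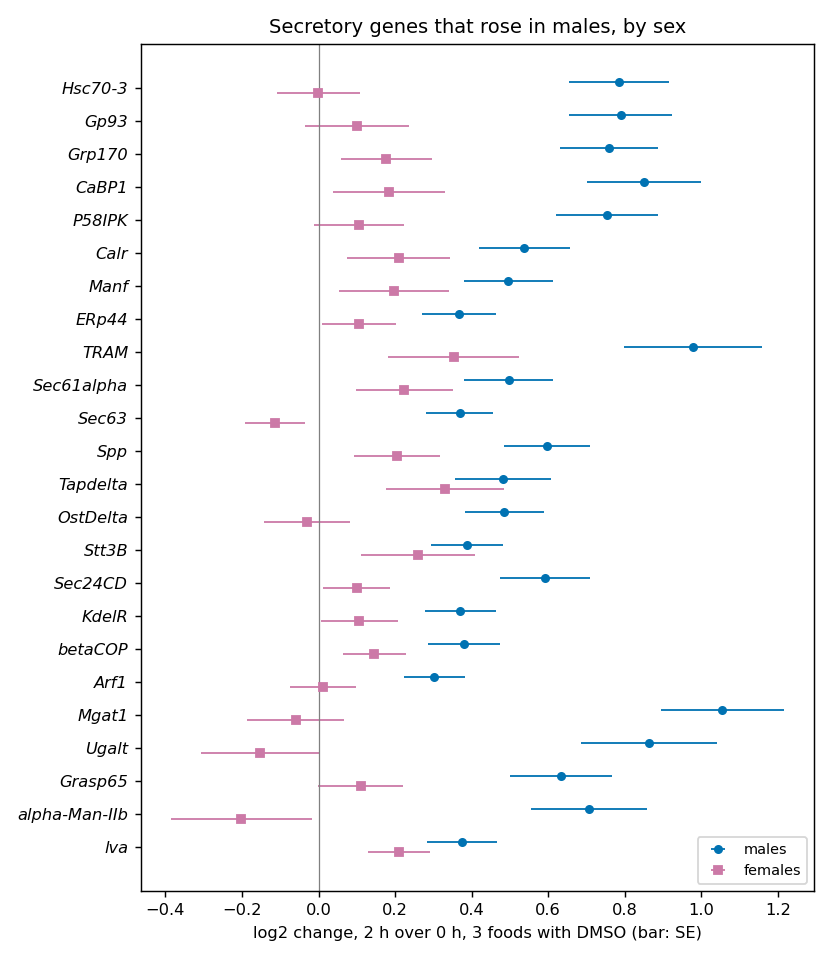
Log2 change at 2 h over 0 h on the 3 foods with DMSO, with its SE as a bar, of the 24 secretory genes that rose in males, in males (circles, above) and females (squares, below), 9 and 9 flies per sex. The genes were chosen for their rise in males. Hsc70-3, at 0.78 in males and -0.00 in females, and Mgat1 and Ugalt are the 3 whose difference between the sexes passed.

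Later flies showed how far the changes lasted. At 8 h against 2 h on the same foods 426 genes were higher (3.37% of those tested) and 110 lower (0.87%), together 4.24%. Of the 80 genes that rose at 2 h, 5 were lower and 1 higher at 8 h than at 2 h, and of the 97 that fell, 25 were higher and none lower. The median of the rises over 0 h was 0.47 at 4 h and 0.51 at 8 h, and of the falls -0.85 and -0.58. These use the same 0 h flies as the 2 h changes, and the comparison of 8 h with 2 h uses the same 2 h flies. Against 0 h, 64 genes were higher at 4 h (0.506%) and 57 lower (0.451%), together 0.957%, and 879 were higher at 8 h (6.95%) and 554 lower (4.38%), together 11.3%. Of the 72 secretory genes, 18 were higher at 4 h and 32 at 8 h. The 4 h flies included the library with the fewest gene counts of the series, replicate 1 on the 0.4% food. That library held 958896 gene counts, 42.7% of them ribosomal RNA, and the 4 h comparison was not repeated without it. Mgat1 averaged 83.5 ± 27.3 CPM at 2 h and 38.6 ± 4.75 at 0 h (SD, n = 9 each), and its change over 0 h was 0.91 at 4 h and 1.21 at 8 h. CG3999 was lower at 8 h than at 2 h by 1.8 on the log2 scale (edgeR adjusted p = 0.0146), and SerRS by 0.37 (adjusted p = 0.0376). Mal-A7 was higher at 8 h than at 2 h by 2.49 (adjusted p = 0.0234), Npc2f by 3.01 (adjusted p = 0.0135), kappaTry by 1.03 (adjusted p = 0.0371) and GstT4 by 0.61 (adjusted p = 0.0298). CG6277, thetaTry and Cyp6a9 did not pass the test between these times. The count of 536 ran from 184, without replicate 2 at 8 h on the 0.4% food, to 822, without replicate 1 at 8 h on the 0.1% food. Leaving out 5 more libraries moved it by over 1.5 times: 313 and 329 without replicates 1 and 3 at 2 h on the 0.1% food, 349 without replicate 2 at 2 h on the 0.4% food, and 345 and 333 without replicates 1 and 2 at 8 h on the 0.2% food.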

How the data were processed

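Polyadenylated RNA was sequenced from 96 single flies. The authors deposited whole-number read counts per gene for each library, in FlyBase identifiers. Per the submitters' processing notes, which give no roles, the tools were STAR 2.4.2a, HTSeq 0.6.1p1, TopHat2 2.1.0, bcl2fastq 1.8 and CASAVA 1.8.2. No source used here names the genome build, so no coordinates or sequences are reported. Per the labels' protocols, RNA of other insect species was mixed into each sample, the kit was stranded, and spike-ins were added at fragmentation. Each file held 17370 gene rows, 96 spike-ins and 5 summary lines. The last 2 kinds stayed out of library sizes and tests, and the summary lines took 8.96 to 17.9% of the 18 libraries. Of the identifiers 17155 matched a symbol and 215 did not (2.55% of counts).

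Tests used edgeR 4.0.16 in R 4.3.3 (TMM scaling, default expression filter, quasi-likelihood test, Benjamini-Hochberg adjustment over all genes tested at 0.05) on the 48 male libraries as 16 groups, or on 48 libraries of both sexes at 0 and 2 h for sex differences and female changes. Groups came from titles. Replicates were separate flies, with no identical pair among 18 replicate pairs (smallest chi-square per degree of freedom 7.42). CPM values were computed here from the deposited counts and TMM-scaled, marker sums and marker genes without scaling. Library measures used exact permutation tests. Fits were checked on counts simulated without imitating the libraries high in ribosomal RNA, so that check does not cover their effect on the counts of genes. Floors of 3 counts cover counting error only, while intervals and SEs of changes come from the edgeR fit and carry the spread between flies.

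The comparison and gene lists were chosen with earlier results of these data known. Named genes are the 14 largest changes in each direction that pass with 1 sign on all 3 foods and a mean of at least 1 CPM, and up to 4 called members per list, or up to 2 members where none is called; others are said to be chosen after their values were seen. These are the genes of the 6 lists written later (5 secretory lists and chemosensory receptors), CG8560, CG6283, those called on food without DMSO or between the sexes, and those without overlap. Genes with near copies (CG6277 and CG6283, CG8562 and CG8560, trypsins, P450s) could share or lose reads. Alternatives were RLE scaling, DESeq2 1.42.0, other filters, fewer or more libraries, a replicate block, and, added after seeing the data, checks on ribosomal RNA. Promoter motifs were planned and not searched, since no promoter sequences were used here.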

Additional observations from a re-analysis of the deposited data

Results flagged for a closer look

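Spike-in counts relative to gene counts were 13.1 times as high at 0 h as at 2 h in the mean, a signal in control transcripts outside the gene comparisons.

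The change at 2 h differed between males and females by 1.12 on the log2 scale for Mgat1, by 1.02 for Ugalt, by 0.893 for CG13671, by 0.865 for slv, by 0.792 for Hsc70-3 and by 0.758 for CG9467, each by a test of the difference itself in edgeR.

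Single libraries lay far from the other 8 of their group for 13 of 192 groups of values examined, where chance alone gives about 1 in 20. Of these 3 came from replicate 1 at 2 h on the 0.1% food: Calr at 339.1 CPM and GstZ2 at 2.02 CPM were the lowest of the 9, and CG8661 at 16 CPM was the highest, with a median of 0 among these 9. Another 2 came from replicate 3 at 2 h on the 0.2% food, with Dscam2 at 273.8 CPM and Cyp4e3 at 14.01 CPM, both the highest. Sclp was lowest, at 11.96 CPM, in replicate 2 at 2 h on the 0.2% food. At 0 h, Orct was lowest, at 8.58 CPM, in replicate 1 on the 0.4% food, CG13671 was lowest, at 5.38 CPM, in replicate 1 on the 0.1% food, and CG4734 was highest, at 58.4 CPM, in replicate 3 on that food. Of summed markers, accessory gland reached 29838 CPM in replicate 1 and muscle 30916 CPM in replicate 2 at 2 h on the 0.4% food, and fat body reached 2583 CPM and blood cells 537 CPM in replicate 3 at 0 h on the 0.2% food.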

How the results depend on the processing

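The count of 177 genes was 178 with RLE scaling, 171 with no expression filter, 174 with a filter at 1 CPM and 188 with ribosomal RNA genes left out. It was 211 with ribosomal RNA percent as a covariate, 290 by DESeq2 and 493 over all 4 foods (213 higher and 280 lower). A fit of the 18 libraries alone gave 744, and 412 without the 2 of them over 30% ribosomal RNA. Without these 2 the fit of all males gave 32, and other male libraries over 30% stayed in it. Single foods gave 0, 12 and 25 at 0.1, 0.2 and 0.4%. Leaving out 1 library gave 89 to 257 for the count of 177, 0 to 25 for food without DMSO and 0 to 2 for its difference from foods with DMSO. It gave 0 to 3 for dependence on the DMSO level, 184 to 822 for 8 h against 2 h and 10 to 1181 for the sex difference. For food without DMSO, 22 genes became 111 by DESeq2 and 109 in a fit of its 6 libraries alone. DESeq2 gave 2 for the difference between foods and 261 for the sex difference, against 0 and 24. The share of reads outside genes differed by ranks by -5.89 (adjusted p = 0.0813), so that difference was no longer called. On the 0.4% food alone TotX had a log2 value of 0.0386, and on the 0.1% food alone Mal-A7 had 0.389, Or59b -0.0803 and Orco -0.0372, each the reverse of its main direction; the cause was not tested.

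Replicate numbers did not pair the flies: over 9 pairs the deviations of same-numbered flies at both times correlated between -0.199 and 0.0766. With the replicate block the count was 156, 154 of them among the 177, and 17 for food without DMSO, 484 for 8 h against 2 h and 17 for the sex difference. Of the 83 called genes named in the text, 40 stayed called under all 18 leave-one-out fits, and all kept their sign in these. Such fits share most libraries with the main one, so a kept sign was likely from the outset. Over 32 alternatives the call was lost in 20 for SerRS, Smug and Cyp12a4, in 19 for ERp44, Pepck2, Mal-A7 and TotX, in 18 for Arf1 and in 17 for Tapdelta, Obp49a and Cyp4ac3. At a median SE of 0.154 the smallest log2 change called was 0.28, and at 0.353 to 1.05 CPM per 3 counts low genes were measured coarsely.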
